A study of Homo sapiens with 4 samples.

Results

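Chromatin accessibility was followed at 9 genes that govern the G1 phase of the cell cycle, CCND1, CCND2, CCND3, CDK4, CDK6, CDKN1B, CDKN2C, MYBL2 and E2F1, in lymphoma cells with silenced IRF4. Members were the intervals (merged peaks of the assay, hg38) whose midpoint lay inside the body of one of these genes, or else nearest to its end among protein-coding genes and within 100 kb. This rule gave 51 of the 73135 intervals counted, 35 of them inside a gene body and 16 outside. CCND2 held 15, CCND3 12, CDK6 7, MYBL2 6, CCND1 and CDKN2C 4 each, and CDK4, CDKN1B and E2F1 1 each.

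The assay was ATAC-seq, which reads out open DNA through insertions of a transposase. The cells were TMD8, an established line of activated B cell-like (ABC) diffuse large B cell lymphoma, so every library came from 1 line. Of the 4 libraries, 2 were controls that received a scrambled short hairpin RNA and 2 received a hairpin against IRF4 (shIRF4), a transcription factor of B and plasma cells on which ABC lymphoma cells depend. The library names write siIRF4 where the titles write shIRF4, and neither the time after silencing nor the number of cultures is given in the sources used here, so p-values measure the spread between these libraries, which may be technical. Library totals ran from 9112860 to 17954924 counts, and the lowest and the highest both belonged to shIRF4. The 2 control libraries differed by little more than counting noise (chi-square per degree of freedom 1.04, against 2.01 for the shIRF4 pair). At gene ends, all 5 B cell marker genes reported (MS4A1, CD79A, CD79B, PAX5 and BLK) held an interval. Summed over these genes the level was 482 to 484 CPM (counts scaled to a common library size) in control and 434 to 481 CPM in shIRF4, and 1 of 10 intervals was lower. Of 18 genes that mark T, myeloid, epithelial and erythroid cells, 5 held an interval at an end. Over the T cell genes the summed level was 38.8 to 43.4 CPM in control and 36.4 to 36.5 in shIRF4, nearly all of it at CD8A, where 1 of 3 intervals was lower. The CD3E interval was called higher, with 1.93 and 2.01 CPM in control and 4.29 and 3.16 CPM in shIRF4. At CDH1, an epithelial gene, 1 of 2 intervals was lower, and the summed level was 22.5 and 22.1 CPM in control and 18.3 and 16.0 CPM in shIRF4. Over the myeloid genes, CD14 and ITGAM, the sum was 17.3 and 19.5 CPM in control and 19.5 and 21.3 CPM in shIRF4. The part of these marker levels in the results was not tested. CD3D, CD3G, CD4, CD2, LYZ, CSF1R, MPO, EPCAM, KRT8 and KRT18 held none there.

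D-type cyclins bind and activate the kinases CDK4 and CDK6, which phosphorylate the retinoblastoma protein and so release E2F transcription factors that switch on genes for DNA replication. CDKN2C (p18) blocks CDK4 and CDK6, and CDKN1B (p27) restrains cyclin-kinase complexes that act later in G1. E2F1 is one of the released factors, and MYBL2 (B-MYB) is an E2F target that carries the program on towards mitosis. Mature B cells draw mainly on CCND2 and CCND3, and germinal centre B cells on CCND3, whereas CCND1 is the cyclin activated by translocation in mantle cell lymphoma.

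Start sites of 7 of the 9 genes could be placed with RefSeq promoter sequences (GRCh38.p14), 12 starts in all, of which 10 lay inside a member interval. The CDKN2C start at 50960745 lay inside an interval assigned to FAF1 by its midpoint, 50959304 to 50960804. That interval measured 34.1 and 31.2 CPM in control and 33.7 and 34.5 CPM in shIRF4 and did not pass (log2 fold change 0.06). CCND1 and CCND2 had no entry. CCND3 has 3 starts, of which the most downstream, at 41939205, lay in no interval. The 3 sequences below, each the 250 bases before a start read 5′ to 3′ on the gene's strand, are shown because the upstream CCND3 start lay in an interval that rose and the middle one in an interval that did not pass, and because E2F1 was the member promoter with matches to the motifs searched. Capitals mark the E2F letters. The first is chr6:42048689-42048938 (minus strand), the second chr6:41941809-41942058 (minus strand) and the third chr20:33686386-33686635 (minus strand).
CCND3 upstream start: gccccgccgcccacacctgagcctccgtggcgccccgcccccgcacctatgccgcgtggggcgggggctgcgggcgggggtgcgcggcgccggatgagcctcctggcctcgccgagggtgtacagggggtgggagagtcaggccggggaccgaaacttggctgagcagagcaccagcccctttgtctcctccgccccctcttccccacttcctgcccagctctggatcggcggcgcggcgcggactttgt
CCND3 middle start: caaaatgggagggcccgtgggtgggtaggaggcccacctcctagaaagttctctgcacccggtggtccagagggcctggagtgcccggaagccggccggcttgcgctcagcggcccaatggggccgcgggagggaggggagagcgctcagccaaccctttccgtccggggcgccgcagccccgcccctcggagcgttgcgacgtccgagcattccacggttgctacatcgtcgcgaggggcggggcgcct
E2F1 start: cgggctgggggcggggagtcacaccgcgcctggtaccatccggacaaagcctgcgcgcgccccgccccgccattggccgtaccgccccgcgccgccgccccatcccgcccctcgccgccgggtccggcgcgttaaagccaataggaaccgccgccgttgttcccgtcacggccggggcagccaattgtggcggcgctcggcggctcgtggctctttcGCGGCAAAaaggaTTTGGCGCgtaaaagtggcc

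The motif letters were searched on both strands. For E2F they were TTTGGCGC, TTTCCCGC, TTTCGCGC and TTTGCCGC, and at least 1 of these was present in 2.79% of all 35116 promoters of this length. E2F1 held 2 that did not overlap, TTTGGCGC at 20 to 13 bases before the start and TTTGCCGC, read on the other strand, at 33 to 26 bases before it. None of the other 11 member promoters held these E2F letters. None of the 12 held TTTGAA, the letters of the cell cycle homology region (13.3% of all promoters), the interferon-stimulated response element that IRF proteins bind (3.02%), or the composite element of ETS and IRF factors (2.41%). These are matches of letters and not measured binding, and a promoter without a match may hold sites spelled otherwise.

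Of the 51 intervals, 5 were lower and 3 higher in shIRF4 than in control (edgeR, adjusted p below 0.05), and 43 did not pass the test. That is 15.7% called, against 22.8% of the 73028 intervals tested across the genome, where 15.5% were lower and 7.26% higher. The genes with a call were CCND2, CCND3, CDK6 and MYBL2. CCND3 held the 3 rises, and the 5 falls were shared by CCND2 (2), MYBL2 (2) and CDK6 (1). The 2 groups did not overlap at any of the 8 called intervals, nor at 24 of the others. Over all tested intervals the groups did not overlap at 59.0%, so with 2 libraries a side this separation is common. DESeq2 called 3 members lower and 1 higher, and 6.26% of all intervals. With edgeR, fewer members were called without shIRF4 replicate 1 and more without shIRF4 replicate 2. The same held over all intervals, so these shifts were not particular to the members. In such bulk libraries, fewer open cells and less open DNA per cell cannot be told apart. The median log2 fold change of the members was 0.12 and that of all intervals 0.01. With libraries scaled by their totals alone, the members split into 5 lower and 8 higher, and all intervals into 58.0% lower among those called in place of 68.2%.

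**Figure D1:**
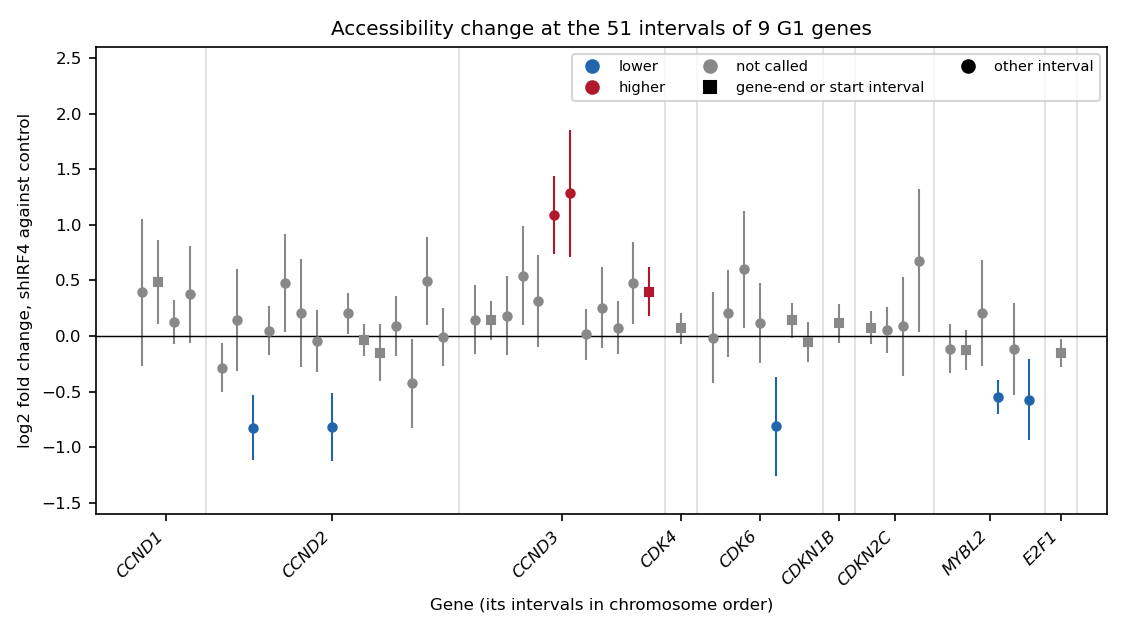
Log2 fold change (shIRF4 against control) of each of the 51 intervals, grouped by gene and in chromosome order, with its 95% interval from edgeR. Blue points were called lower and red ones higher, and squares are intervals at a gene end or RefSeq start. The 3 red points all belong to CCND3 and the 5 blue ones to CCND2, CDK6 and MYBL2.

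Few intervals at gene starts and ends passed the test. Of the 12 member intervals at a gene end or RefSeq start, 1 was higher and none lower, with 3 below an unadjusted p of 0.05 in edgeR and with none lower in DESeq2 either. Among gene-end intervals of all genes, 11.8% were called, and the 8.33% of the members is near that share. The sets differ in kind, since some of the 12 hold a RefSeq start but do not reach within 1 kb of a gene end. Per kb of interval, the control level was highest at CDK4 (33.7 CPM per kb) and E2F1 (32.7 CPM per kb), which did not separate beyond the spread of the CDK4 libraries. It was 22.0 CPM per kb at the CDK6 downstream start, 17.0 to 19.9 at MYBL2, CDKN1B and CDKN2C, and lowest, 9.82 CPM per kb, at the CCND1 gene end. These are levels of open DNA and do not measure mRNA.

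**Figure D2:**
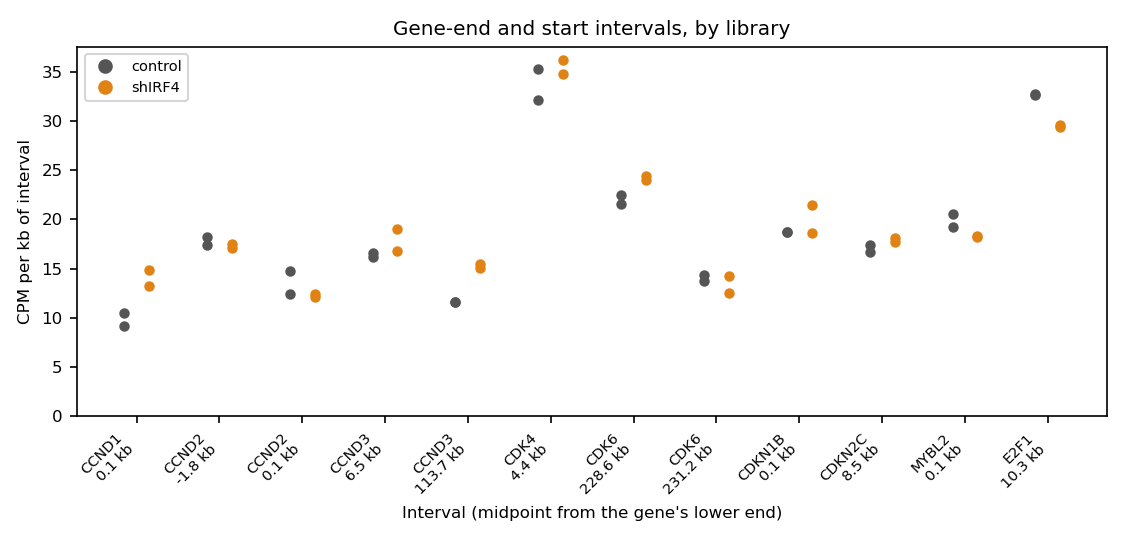
CPM per kb of interval in each of the 4 libraries at the 12 member intervals at a gene end or RefSeq start, with control in grey and shIRF4 in orange. Labels give the midpoint in kb from the gene's lower-coordinate end. The CCND3 interval at 113.7 kb, which passed the test, has both shIRF4 points above both control points.

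Among the D cyclins, CCND3, on chromosome 6 (41934933 to 42050035, RefSeq gene 896), gained accessibility in the upstream part of its body. The smallest adjusted p of the gene was at 42022250 to 42022983, 26072 bp downstream of the upstream start. It measured 3.69 and 4.91 CPM in control and 9.17 and 9.27 CPM in shIRF4. Both shIRF4 libraries lay above both controls, and they were nearly equal to each other. The mean rose 2.12-fold, from 4.30 ± 0.862 to 9.22 ± 0.0699 CPM (± SD, n = 2, and a log2 fold change of 1.09, standard error 0.17, edgeR adjusted p = 5.2e-05), and the call held under every alternative run. Further towards that start, the 177 bp interval at 42024263 to 42024439 was weak, with 14 to 16 reads per control library and 24 to 56 per shIRF4 library. Its levels were 1.34 and 1.04 CPM in control and 3.04 and 2.62 CPM in shIRF4, again without overlap (log2 fold change 1.28, standard error 0.28, edgeR adjusted p = 0.00145). That call was lost in DESeq2 (adjusted p = 0.121).

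The interval over the upstream start of CCND3 itself, 42048126 to 42049218, was higher as well. It measured 12.7 CPM in each control library and 16.9 and 16.5 CPM in shIRF4 (1.32-fold; log2 fold change 0.40, standard error 0.11, edgeR adjusted p = 0.00903). All 4 values were tight within their group, yet the rise was small. The call was lost in DESeq2 (adjusted p = 0.271) and when control replicate 1, control replicate 2 or shIRF4 replicate 1 was left out (adjusted p = 0.0632 to 0.0715). At the middle start the interval at 41940624 to 41942319 was more open, with 28.1 and 27.4 CPM in control and 32.2 and 28.5 CPM in shIRF4. It did not pass (log2 fold change 0.14, 95% interval -0.03 to 0.32, edgeR adjusted p = 0.252), although it passed without shIRF4 replicate 2 (adjusted p = 0.0469). Whether these starts differed in their response was not tested. All 12 CCND3 intervals had a log2 fold change above 0, with a median of 0.29, and 3 passed. One of the level ones, at 42025195 to 42026057, lies between 2 regions that rose and had 15.7 ± 0.789 CPM in control and 15.5 ± 1.91 CPM in shIRF4 (SD, n = 2). A further interval, 42050009 to 42051121, overlaps the upper-coordinate end of CCND3 but is assigned to TAF8 by its midpoint. It measured 34.5 and 34.2 CPM in control and 35.1 and 36.3 CPM in shIRF4 and did not pass (log2 fold change 0.05, edgeR adjusted p = 0.688).

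CCND2, on chromosome 12 (4273762 to 4305353, RefSeq gene 894), lost accessibility at 2 intervals outside the gene. The interval at 4203803 to 4204677, 69085 bp from the gene's lower end, measured 13.9 and 12.1 CPM in control and 7.93 and 6.22 CPM in shIRF4. Its fall was 1.77-fold (log2 fold change -0.82, standard error 0.14, edgeR adjusted p = 0.000153). The interval at 4246075 to 4246514, 27248 bp from the same end, measured 11.1 and 9.89 CPM in control and 5.65 and 6.44 CPM in shIRF4. Here the fall was 1.76-fold (-0.82, standard error 0.15, edgeR adjusted p = 0.00028). In both, each shIRF4 library lay below each control, and both calls held under every alternative run, except that the first lies beyond the 50 kb limit of one of them.

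Between and beside these 2 sites CCND2 intervals did not pass. The CCND2 interval with the highest CPM, at 4270645 to 4273305 and 457 bp from the gene's lower end, measured 48.3 and 46.2 CPM in control and 46.5 and 45.5 CPM in shIRF4, with overlapping groups (log2 fold change -0.04, 95% interval -0.18 to 0.11, edgeR adjusted p = 0.762). Per kb of interval its control level was 17.8 CPM, below 23.8 at the lower interval at 4246075 and 21.5 at the uncalled interval at 4201239. At 4273402 to 4274361, which spans that end, the levels were 14.2 and 11.9 CPM in control and 11.6 and 11.9 CPM in shIRF4 (-0.15, 95% interval -0.40 to 0.11). This end lies inside CCND2-AS1, an antisense transcript, and accessibility cannot be split between overlapping genes. Of all 15 CCND2 intervals 7 had a log2 fold change above 0 and 8 below, around a median of -0.01.

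**Figure D3:**
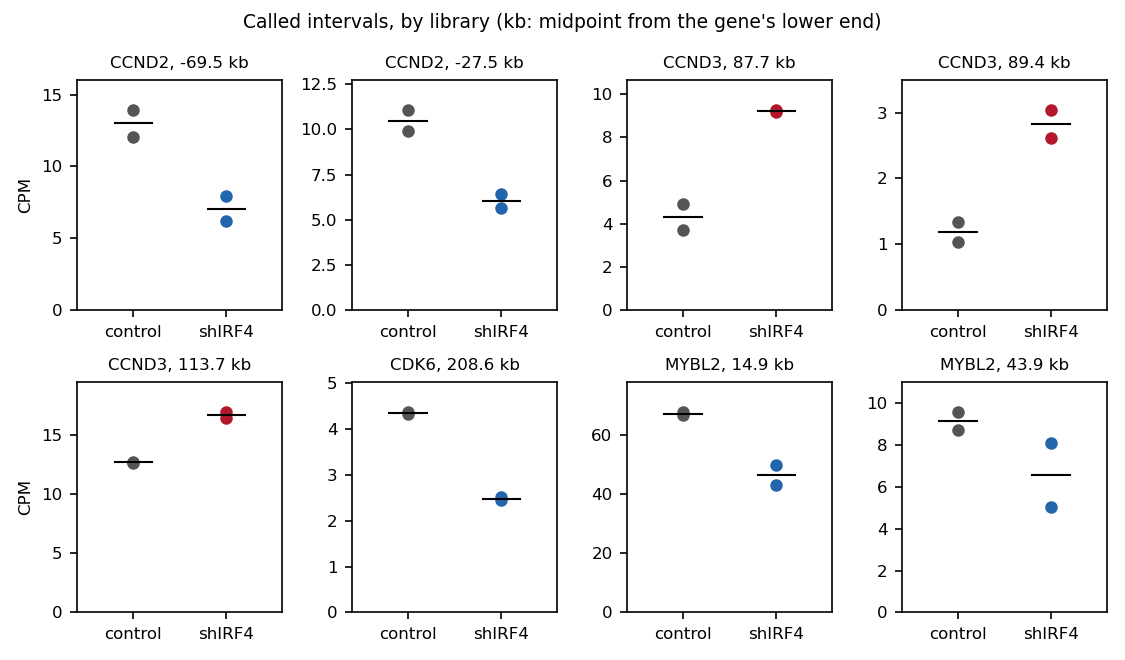
CPM in each library (points) and the group mean (bar) at the 8 called intervals, each with its own axis from 0. Titles give the gene and the midpoint in kb from its lower-coordinate end. The MYBL2 interval at 43.9 kb has its 2 shIRF4 libraries far apart, at 5.05 and 8.07 CPM.

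CCND1, on chromosome 11 (69641156 to 69654474, RefSeq gene 595), had no called interval among its 4, and 1 lay below an unadjusted p of 0.05. No CCND1 interval passed in DESeq2 either. Its most open interval, 69642598 to 69643979, measured 20.1 and 18.9 CPM in control and 21.5 and 20.8 CPM in shIRF4 (log2 fold change 0.13, 95% interval -0.07 to 0.32, edgeR adjusted p = 0.374). The gene-end interval at 69641061 to 69641492 measured 3.94 and 4.54 CPM in control and 5.70 and 6.44 CPM in shIRF4, without overlap (0.49, standard error 0.18, edgeR adjusted p = 0.0605). It passed when libraries were scaled by their totals (0.53, adjusted p = 0.0364). All 4 CCND1 intervals had a log2 fold change above 0.

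Of the kinases, CDK4 on chromosome 12 (57747727 to 57752310, RefSeq gene 1019) has 1 interval, 57751335 to 57753018, which spans its start. It measured 54.0 and 59.4 CPM in control and 58.6 and 60.9 CPM in shIRF4. The groups overlapped (log2 fold change 0.07, 95% interval -0.07 to 0.21, edgeR adjusted p = 0.514). CDK6, on chromosome 7 (92604921 to 92836573, RefSeq gene 1021), has 7 intervals, all in its body. The pair that holds its starts was the longest and had by far the highest CPM. Per kb of interval, these had 22.0 and 14.1 CPM in control, and the other CDK6 intervals 9.34 to 17.0. The one at 92832704 to 92834323 measured 36.3 and 35.0 CPM in control and 39.5 and 38.9 CPM in shIRF4 (0.14, 95% interval -0.01 to 0.30, edgeR adjusted p = 0.191). The one at 92835083 to 92837152 measured 28.4 and 29.8 CPM in control and 29.5 and 25.9 CPM in shIRF4 (-0.06, 95% interval -0.24 to 0.12, edgeR adjusted p = 0.708). CDK6-AS1, an antisense transcript, overlaps the second.

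A small interval inside CDK6, 92813421 to 92813684, was the one that fell, 20407 bp downstream of the nearest start. It measured 4.36 and 4.31 CPM in control and 2.44 and 2.51 CPM in shIRF4 (1.76-fold; log2 fold change -0.81, standard error 0.22, edgeR adjusted p = 0.00828). The 2 libraries of each group were close together and the groups well apart. With 23 to 58 reads per library the call was lost in DESeq2 (adjusted p = 0.244) and when shIRF4 replicate 1 was left out (-0.78, adjusted p = 0.0909).

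The inhibitors CDKN1B and CDKN2C had no call among 5 intervals, 1 of them below an unadjusted p of 0.05, and none in DESeq2. The CDKN1B interval on chromosome 12, 12716697 to 12718258, covers the start of the p27 gene (12717368 to 12722369, RefSeq gene 1027). It measured 29.3 and 29.2 CPM in control and 33.5 and 29.1 CPM in shIRF4 (log2 fold change 0.12, 95% interval -0.06 to 0.29, edgeR adjusted p = 0.369). The higher value came from shIRF4 replicate 1 alone. The most open CDKN2C interval, on chromosome 1 at 50968071 to 50970481, holds 2 starts of the p18 gene (50960745 to 50974634, RefSeq gene 1031). It measured 41.9 and 40.1 CPM in control and 43.6 and 42.5 CPM in shIRF4 (0.08, 95% interval -0.07 to 0.23, edgeR adjusted p = 0.502). A p above the threshold does not show that the groups were alike, and these intervals give the sizes of change that remain possible.

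MYBL2, on chromosome 20 (43667114 to 43716482, RefSeq gene 4605), lost accessibility inside its body but not measurably at its start. The interval at 43680992 to 43683127, 14945 bp downstream of the start, had the second highest control CPM of all 51. It measured 66.8 and 67.6 CPM in control and 43.0 and 49.9 CPM in shIRF4, so that the groups were far apart. The mean fell 1.46-fold, from 67.2 ± 0.594 to 46.4 ± 4.81 CPM (± SD, n = 2, and a log2 fold change of -0.55, standard error 0.07, edgeR adjusted p = 7.21e-06), and the call held under every alternative run. The other lower interval, at 43710588 to 43711512, measured 9.56 and 8.70 CPM in control and 5.05 and 8.07 CPM in shIRF4 (-0.57, standard error 0.18, edgeR adjusted p = 0.0217). It rested on shIRF4 replicate 1, without which the change was -0.16 (adjusted p = 0.635). DESeq2 did not call it (adjusted p = 0.383), nor did edgeR when control replicate 1 was left out (adjusted p = 0.106). The start interval, 43666496 to 43667869, measured 26.4 and 28.3 CPM in control and 25.1 and 25.2 CPM in shIRF4 (-0.12, 95% interval -0.30 to 0.05, edgeR adjusted p = 0.332).

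Lower intervals were also found outside MYBL2. Within 100 kb of its body lay 10 intervals assigned to other genes, of which 4 were lower in edgeR, beside 15.5% of all intervals. All 4 lay past the upper-coordinate end and were assigned to GTSF1L by distance. The intervals nearest to that end, at 43721659 and 43733311, did not pass (log2 fold change -0.31 and 0.27). One at 43750948 to 43752008, 34466 bp from MYBL2, fell from 39.5 ± 1.95 to 21.2 ± 1.30 CPM (± SD, n = 2, and a log2 fold change of -0.91, standard error 0.08, edgeR adjusted p = 7.02e-08). Another at 43736646 to 43737202, 20164 bp away, fell from 11.8 ± 1.01 to 4.73 ± 0.555 CPM (-1.35, standard error 0.15, edgeR adjusted p = 1.06e-06). Position does not show which gene such an interval serves. Over the 64 intervals of other genes within 1 Mb of MYBL2 the median log2 fold change was 0.02, with 8 lower and 6 higher.

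**Figure D4:**
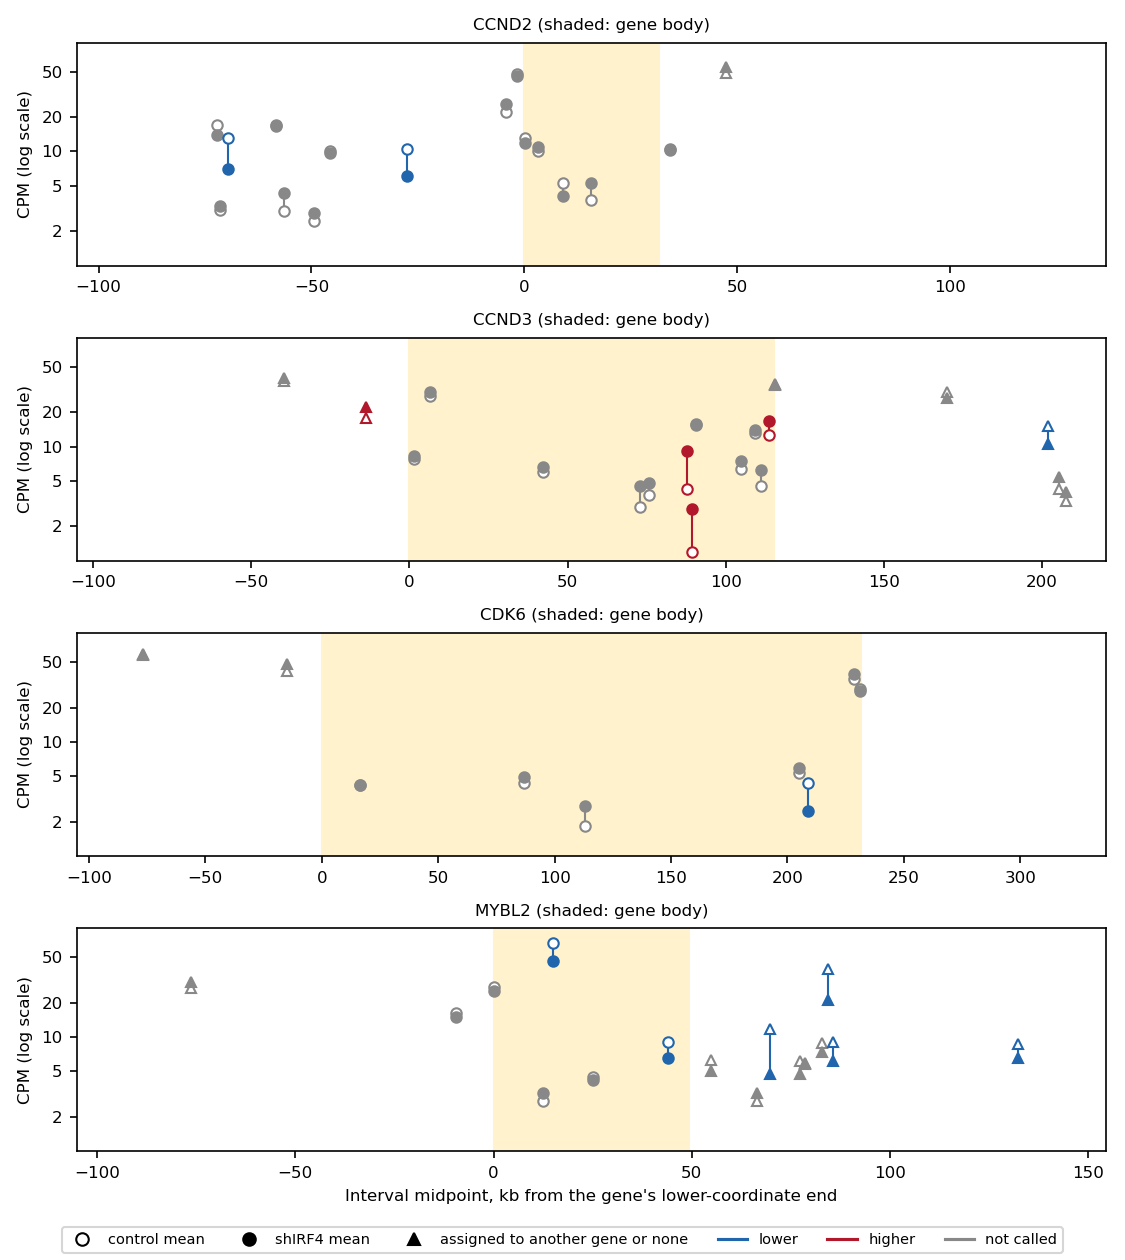
Mean CPM (log axis) in control (open symbols) and shIRF4 (filled symbols) along CCND2, CCND3, CDK6 and MYBL2, against the interval midpoint in kb from the gene's lower-coordinate end. Circles are members, triangles are intervals within 100 kb assigned to another gene or to none, and shading is the gene body. At MYBL2 lower intervals (blue) lie inside the body and past it, and at CCND2 both lie outside it.

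The single interval of E2F1, 33684716 to 33686934 on chromosome 20 (gene 33675477 to 33686385, RefSeq gene 1869), covers the promoter shown above. It had the highest control CPM of the 51, though not the highest level per kb. It measured 72.4 and 72.7 CPM in control and 65.2 and 65.6 CPM in shIRF4. The groups were separate and the spread within each was small, but the difference was 1.11-fold and did not pass (log2 fold change -0.15, 95% interval -0.28 to -0.02, edgeR adjusted p = 0.0836). Without shIRF4 replicate 2 it passed (-0.16, adjusted p = 0.0395).

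Counts summed over all intervals of a gene gave one value per gene, tested over 16142 genes, of which 20.2% were called, 13.4% lower and 6.73% higher. Of the 9 genes, CCND3 and CCND1 were higher and MYBL2 and E2F1 lower. MYBL2 fell from 141 ± 0.703 to 111 ± 9.98 CPM (± SD, n = 2, and a log2 fold change of -0.36, standard error 0.06, edgeR adjusted p = 0.000317), and its call held under every alternative run. CCND3 rose from 118 ± 2.30 to 139 ± 7.69 CPM (0.24, standard error 0.05, edgeR adjusted p = 0.00302), lost in DESeq2 (adjusted p = 0.0823). CCND1 (0.22, adjusted p = 0.0423) and E2F1 (-0.17, adjusted p = 0.0278) each lost their call in 6 of the 11 alternatives. For CCND1 these included leaving out control replicate 1 (0.26, adjusted p = 0.071), control replicate 2 (0.18, adjusted p = 0.283) and shIRF4 replicate 2 (0.18, adjusted p = 0.0711). For E2F1 they included leaving out control replicate 1 (-0.17, adjusted p = 0.142), control replicate 2 (-0.16, adjusted p = 0.165) and shIRF4 replicate 1 (-0.16, adjusted p = 0.0826). E2F1 has the same counts in both tests. The standard error was 0.06 over intervals and 0.05 over genes, and the unadjusted p was 0.023 and 0.00456. What made the call differ was not tested. CCND2, with 2 lower intervals among 15, did not pass as a sum (-0.09, adjusted p = 0.2), but passed without shIRF4 replicate 2 (-0.10, adjusted p = 0.0442).

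Weakly read intervals leaned upward in the members and across the genome. In the lowest abundance quartile, 11 of 12 member intervals had a log2 fold change above 0, with a median of 0.38, and over all intervals in that quartile the median was 0.12, with 11232 of 18257 above 0. In the highest quartile the medians were 0.05 for 19 members and 0.01 for all. The CCND3 interval at 42024263 and the CDK6 interval at 92813421 belong to the lowest quartile and that of CCND3 at 42022250 to the third. The part of abundance in these changes was not tested.

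Other genes of the G1 to S transition came from a list of 34, of which 29 held 112 intervals. Of these, 14 were lower and 11 higher (22.3% called), with a median log2 fold change of 0.00, beside 22.8% and 0.01 for all intervals. A called interval was found at 10 genes, 5 of them with both directions. At RBL1, which encodes the retinoblastoma relative p107, 3 of 7 intervals were lower and 2 higher. The strongest fell from 18.5 ± 0.824 to 11.6 ± 1.38 CPM (± SD, n = 2, and a log2 fold change of -0.65, standard error 0.11, edgeR adjusted p = 0.000164). At RB1, the retinoblastoma gene, the gene-end interval rose from 36.5 ± 1.58 to 46.3 ± 1.00 CPM (0.34, standard error 0.07, edgeR adjusted p = 0.00162), 1 other interval was higher and 1 lower. In E2F5, which encodes a repressive E2F, an interval in the body fell by 1.44 on the log2 scale (standard error 0.18, edgeR adjusted p = 3.34e-06) while its gene-end interval rose by 0.27 (standard error 0.07). TFDP1, the dimer partner of E2F proteins, held 1 lower interval (-0.81, standard error 0.16). CDKN1A, the p21 inhibitor gene, held 1 lower (-0.46, standard error 0.09) and 1 higher (0.54, standard error 0.14). CABLES1, a gene for a CDK-binding protein, had 5 of 19 lower and 2 higher, and its gene-end interval changed by -0.33 (standard error 0.07). None of the intervals of CDK2, CCNE1, CCNA2 or FOXM1 passed. These are the cyclin E kinase, cyclins E1 and A2, and a late cell cycle factor. Without shIRF4 replicate 1 the list held 5 lower and 6 higher intervals, without control replicate 1 8 lower and 5 higher, and without control replicate 2 10 lower and 7 higher.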

How the data were processed

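For each of the 4 libraries the authors deposited unnormalized counts over merged peaks, made with featureCounts 2.0.0 from the 5' end of each read, with marked duplicates ignored and fractional counting of multimapped reads requested, per the file headers. The deposited counts are all whole numbers, so how multimapped reads entered them is not known. Coordinates are on hg38 according to the submitters' processing notes. How reads were aligned, which program called peaks and whether ends were shifted for the transposase is not given in the sources used here.

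Intervals passed filterByExpr (73028 kept, 107 removed, none of them a member), were scaled with TMM factors (0.981 to 1.03) and were tested with the edgeR 4.0.16 quasi-likelihood F-test in R 4.3.3 (legacy=FALSE, group as the term, two-sided). Benjamini-Hochberg adjustment ran over all intervals, with a threshold of 0.05. The standard error is the absolute log2 fold change over the root of F, and the 95% interval uses the test's degrees of freedom. The test was checked on simulated data, where it called 45% of 100 intervals changed 1.5-fold and 83% of 100 changed 2-fold. Changes of these sizes can therefore go uncalled. Of the unchanged simulated intervals, 9 were called. CPM are scaled by library totals and TMM factors, with SD over 2 libraries.

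Genes are RefSeq protein-coding genes (GRCh38.p14). A gene-end interval reaches within 1 kb of an end of its gene. No exon table was used, so exons and introns are not told apart. Named intervals are those called, those at ends or starts and that with the highest CPM in each gene. Of the G1 to S list (34 genes) the 6 genes with smallest adjusted p are named with values. CDK2, CCNE1, CCNA2 and FOXM1 were chosen after their values were seen. Members and lists were chosen with earlier results of these data known. Alternatives were DESeq2 1.42.0, totals in place of TMM, no filter, each library left out, a replicate block, the control pair as 1 sample, and other gene assignments. One marker gene of the B cell list is not reported here.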

Additional observations from a re-analysis of the deposited data

How the results depend on the processing

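Depth and 2 libraries a group limit the precision. Of the member intervals given one by one, 165 of 180 values under an alternative kept direction and side of the threshold. The reversals were the uncalled CCND2 interval at 4270645 (0.011 by totals alone) and the uncalled CDK6 interval at 92835083, 0.018 without shIRF4 replicate 2. DESeq2 called 3 lower and 1 higher member intervals, 3714 and 856 of all intervals, and 3 and 0 in the other G1 to S genes. Totals alone gave 8 higher members. With a library left out, the members had 3 to 6 lower and 2 to 5 higher, all intervals 6405 to 13155 and 2638 to 6842, and the other G1 to S genes 5 to 17 and 5 to 13. Taking any interval within 100 kb of a member gave 16 lower and 6 higher, in a set enlarged by 71 intervals assigned to other genes or to none. Of those 71, 19.7% were called, beside 22.8% of all intervals. Of the gene sums, calls were lost in DESeq2 for CCND1 (0.22), CCND3 (0.24) and E2F1 (-0.17), with the control pair as 1 sample for CCND1 (0.22) and E2F1 (-0.17), and by totals alone for E2F1 (-0.12). With a library left out the sums ran from 0.18 to 0.27 for CCND1, -0.12 to -0.057 for CCND2, called without shIRF4 replicate 2, -0.0092 to 0.13 for CDK4, -0.0057 to 0.050 for CDK6, -0.018 to 0.17 for CDKN1B and -0.18 to -0.16 for E2F1. The labels do not say whether same-numbered libraries were made together. Their deviations from the group means correlated at r = -0.03 over intervals. This cannot decide the question, because the control libraries differed by little more than counting noise. The replicate block left the 8 member calls as they were (8 shared) and ended the call of the CCND1 sum (0.22, adjusted p = 0.054). The cause of these shifts was not tested.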

Other observations

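Around the 9 genes, 71 intervals within 100 kb were assigned to other genes or to none, and 11 of them were lower and 3 higher, 19.7% called beside 22.8% of all intervals. Near CCND1, a gene-end interval of FGF19, a growth factor gene, 44724 bp away rose from 3.67 ± 0.981 to 7.70 ± 0.551 CPM (± SD, n = 2, and a log2 fold change of 1.10, standard error 0.19, edgeR adjusted p = 0.000162). Near CCND3, an interval in BYSL 12911 bp away rose by 0.31 (standard error 0.10) and one in C6orf132 86453 bp away fell by 0.54 (standard error 0.12). Beside CDK4, the gene-end interval of MARCHF9, 2136 bp away, fell from 29.7 ± 1.36 to 22.2 ± 2.66 CPM (SD, n = 2; -0.40, standard error 0.09, edgeR adjusted p = 0.00288), while the CDK4 interval stayed among the 43 that did not pass. Near CDKN1B, intervals in CREBL2 and beside DDX47 changed by -1.54 (standard error 0.27) and -0.54 (standard error 0.17). Near E2F1, 1 interval in CBFA2T2 (-0.87, standard error 0.21) and 2 in ZNF341 were lower and 1 in ZNF341 was higher (0.64, standard error 0.19).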
